A study of Mus musculus with 16 samples.

Results

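Plasmacytoid dendritic cells (pDCs) were examined in single-cell RNA sequencing of lineage-depleted mouse bone marrow. The cells were chosen by their own expression values: a kept cell was gated when it held at least 2 UMIs (unique molecular identifiers, 1 per captured transcript) of Siglech, at least 1 UMI of Tcf4, Rnase6, Cox6a2 or Klk1, at most 1 UMI of Dntt and none of Cd209a. This gate held 446 of 94917 kept cells, or 0.470%, across all 8 libraries. The libraries came from 16 C57BL/6 mice, 6 to 12 weeks old by the labels, in 4 groups of 4 mice. WT mice carried floxed Tet2 alleles (Tet2fl/fl) without Cre, and Tet2-KO mice had lost Tet2 through Vav-Cre, a transgene active throughout blood cells. Each genotype received vehicle or 500 ng of recombinant IL1β per mouse and day into the peritoneum for 5 weeks. Each library pooled 2 mice of 1 group that were told apart by hashtag antibodies, so every group had 2 pools. Because WT mice lacked Vav-Cre, the transgene and the loss of Tet2 cannot be told apart.

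pDCs are the main makers of type I interferon in response to viral nucleic acids, which they sense in endosomes through TLR7 and TLR9. They form in the bone marrow from Flt3-bearing progenitors along myeloid and lymphoid routes. The E protein TCF4 sets and holds their identity together with IRF8, SPIB, RUNX2 and BCL11A. Siglec-H, the protein of Siglech, is a lectin receptor of mouse pDCs, and BST2 is a surface protein by which they are recognised. Many mature pDCs also carry CD45R, a usual target of lineage depletion, so that the shares given here are shares of lineage-depleted cells and not of whole marrow.

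Across the libraries, 8569 to 14573 cells were kept, with a median of 4436 to 7363 UMIs per cell. The gated cells were shallower, with a median of 3008 UMIs against 5914 over all kept cells, and their summed depth per library ran from 56430 to 507138 UMIs. The pools held 52 and 117 gated cells in WT with vehicle, 23 and 31 in WT with IL1β, 81 and 102 in Tet2-KO with vehicle and 30 and 10 in Tet2-KO with IL1β. Any pair of libraries shared at most 57 cell barcodes. The Tet2-KO IL1β pool of mice 3 and 4, with 10 gated cells, was the thinnest sample. Xist was high in 1 pool of every group, that of mice 1 and 2 with vehicle and that of mice 3 and 4 with IL1β, so sex differed between the pools of a group. In 856 erythroid cells, which should lack Siglech, 1 cell (0.117%) held a Siglech UMI and 0 held 2, which allows a share of up to 0.350%, at a median of 6339.5 UMIs.

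The gate cut through a range of Siglech counts. Of the gated cells 215 held exactly 2 Siglech UMIs and 231 held 3 or more, and another 458 cells met the rest of the gate with 1 Siglech UMI. Tcf4, which the gate also used, stood at 521 CPM (counts per 1000000 UMIs) in the cells with 1 Siglech UMI, at 832 in those with 2 and at 1154 in those with 3 or more. Irf8 and Runx2, outside the gate, stood at 1304, 2022 and 1936 CPM and at 458, 714 and 618 CPM in that order. Cells with 2 Siglech UMIs that failed on another criterion were few: 11 had none of the other markers, 40 held 2 or more Dntt UMIs and 40 held Cd209a.

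The markers of pDCs were present in these cells. Siglech lies at chr7:55768178-55778925 on the plus strand (GRCm38). Tcf4 was found in 95.5% of gated cells, Rnase6, a ribonuclease gene, in 52.7%, Cox6a2, a subunit of cytochrome c oxidase, in 45.7% and Klk1, a kallikrein protease gene, in 3.81%. Of the genes outside the gate, Irf8 was found in 99.6% of gated cells, Bst2 in 97.1%, Runx2 in 88.3%, Bcl11a in 86.8% and Spib in 28.3%. In the other kept cells these shares were 27.2%, 41.3%, 18.1%, 55.4% and 0.561% in that order. All 16 listed pDC surface and secreted genes that the gate did not use had a higher CPM in gated cells than in the other kept cells, as a description of cells chosen by expression. The 20 genes with the greatest ratio to the other cells, given as a description because the cells were chosen by expression, were led by Siglech, Ly6d, Cox6a2, Spib, Cd300c and Cd7, and included Ccr9, a chemokine receptor of mature pDCs, Ccnd1, Runx2 and Atp1b1.

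Genes of the interferon-making function were found in few gated cells, at levels above the other kept cells. Tlr7 was found in 3.81% of gated cells (11.0 against 1.2 CPM in the other kept cells), Tlr9 in 0.673% (1.57 against 0.089 CPM) and Irf7, which drives interferon transcription, in 6.28% (17.8 against 4.36 CPM), whereas Unc93b1, the chaperone of these receptors, was found in 65.7%. Of 18 nucleic acid sensing genes in the files 14 were higher than in the other kept cells, at 1885 CPM together against 1130. The chaperone gene Hsp90b1 made up 960 and 755 CPM of these sums. Of 13 type I interferon genes 1 was above 0, with a single Ifna2 UMI in all gated cells together. At this depth a low share of cells with a UMI does not show that a gene was off. Mki67, a gene of cycling cells, was found in 57.4% of gated cells at 633 CPM, and in 65.9% of the other, deeper kept cells at 512 CPM.

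Markers of other lineages were uneven. The B-cell gene Pax5, the recombinase gene Rag1 and the T-cell gene Cd3e were at 0 in all gated cells, and Cd79a, part of the B-cell receptor, stood at 0.523 CPM. Of the 12 listed markers of the B lineage, 9 were above 0 and 6 were higher than in the other kept cells, at 121 CPM together against 59.9, of which Il7r made up 57.6 and 4.78 CPM. Dntt is on this list, and the gate held it to at most 1 UMI per cell. Of 9 granulocyte markers, all were present but each was lower than in other cells, at 6697 CPM together against 17559. Of 7 erythroid markers, all were present and lower than in other cells, at 1377 CPM together against 3830. The 11 listed class II dendritic markers summed to 1921 CPM, mostly Cst3 at 1486 CPM, with Cd209a at 0 by the gate.

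**Figure D1:**
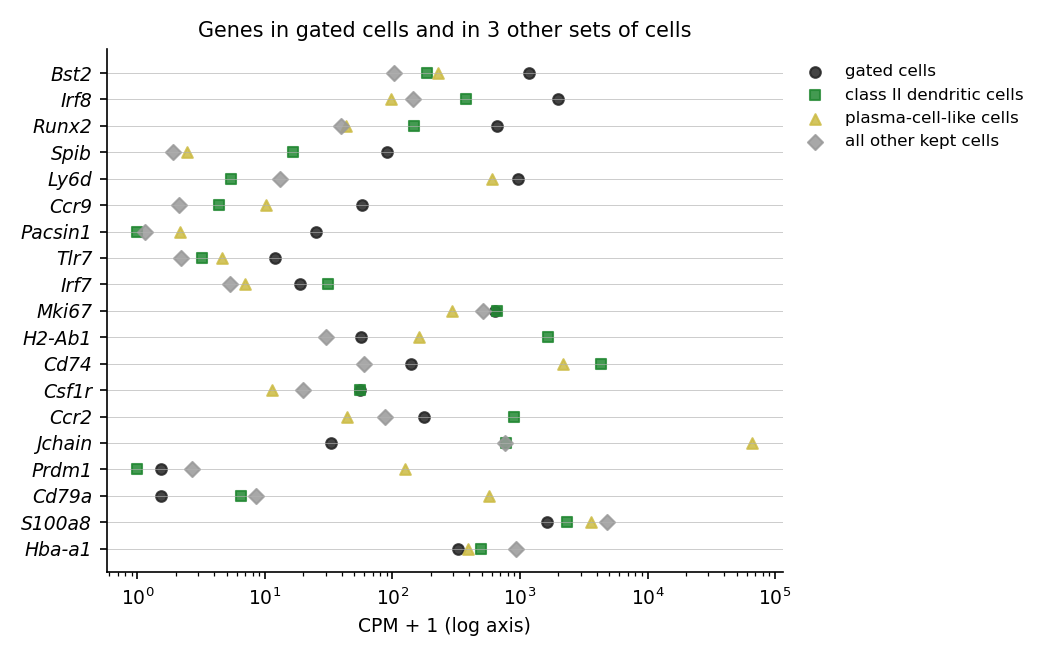
CPM + 1 on a log axis of 19 genes in the gated cells, class II dendritic cells, plasma-cell-like cells and all other kept cells, each over all libraries. Bst2, Irf8, Runx2 and Spib lie furthest right in gated cells, H2-Ab1 and Cd74 in class II dendritic cells, and Jchain, which chose the plasma-cell-like cells, in those cells.

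The gated cells were compared first with another set of dendritic cells, whose likeness to them was not measured. Class II dendritic cells were kept cells with Cd209a, at least 2 UMIs of H2-Aa and no Siglech, of which there were 238. Both gates used expression, so every gene that either used was left out of the calls. Over the 6 libraries with at least 10 cells of both kinds, which lack both Tet2-KO IL1β pools, 190 genes were higher and 274 lower in gated cells of 2462 tested, or 18.8%, by edgeR's quasi-likelihood test with library as a block and Benjamini-Hochberg adjustment. Without the filter on low counts the number called was 757. The filter lets a gene pass through either kind of cell alone, so the direction of a gene low in the other kind was in part set in advance.

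Of the 9 listed pDC transcription factors tested, 4 were higher, 2 lower and 3 did not pass, with a median log2 difference of 0.33 beside 0.02 over all genes. Irf8 stood at 2446 ± 329 CPM in gated cells and 452 ± 176 in class II dendritic cells (SD, n = 6 libraries, scaled with TMM factors), a log2 difference of 2.39 ± 0.15 (SE; edgeR adjusted p = 3.27e-13). Runx2 differed by 2.14 ± 0.16, Runx1 by 1.01 ± 0.17 and Bcl11a by 0.61 ± 0.14 on the log2 scale, all called. Id2, which opposes E proteins such as TCF4, was lower (log2 -2.72 ± 0.28) and Cbfa2t3 also was lower (log2 -0.99 ± 0.14).

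Of 10 listed pDC surface and secreted genes tested, 9 were higher and 1, the NADPH oxidase gene Cybb, was lower, with a median log2 difference of 2.44. Bst2 stood at 1396 ± 293 scaled CPM against 219 ± 65.9 in class II dendritic cells. Ly6d, a surface protein of early B-lineage and pDC progenitors, stood at 1088 ± 714 against 2.16 ± 3.57, higher in 6 of 6 libraries. Atp1b1, a sodium pump subunit, stood at 215 ± 66.8 against 1.41 ± 3.45. Ly6d and Atp1b1 were so near 0 in class II dendritic cells that they passed the filter on low counts through the gated cells. Their direction was thus set by the filter, and the count of 9 higher genes includes both. Cd300c, at 10.8 ± 12.1 scaled CPM in class II dendritic cells, is in that count too and may have passed in the same way. Others among the 10 called genes with the greatest difference were Tex2, Cd300c, Sox4, Snx18 and Bcl2, between 2.28 and 2.99 on the log2 scale. Tex2 and Snx18 stood at 21.5 ± 17.4 and 32.1 ± 27.6 scaled CPM in class II dendritic cells and may also have passed through the gated cells. These differences are descriptions.

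MHC class II genes and monocyte markers were lower, in a comparison that called 18.8% of all tested genes. All 5 tested MHC class II genes were lower, among them H2-Eb1 (log2 -5.03 ± 0.34), H2-Ab1 (-5.00 ± 0.29) and the invariant chain gene Cd74 (-4.93 ± 0.32). The class II dendritic cells were chosen by H2-Aa, a gene of the same list, so this direction was set in advance and is a description. All 5 tested monocyte markers were lower, including Ccr2 (log2 -2.55 ± 0.15) and Lyz2 (log2 -3.57 ± 0.28). The 7 listed monocyte markers summed to 3681 CPM in class II dendritic cells, 866 in gated cells and 825 in cells outside the gate. Of 6 tested granulocyte markers 4 were higher, the granule genes Prtn3, Elane and Mpo among them, and 0 were lower, with a median of 0.92. Over all 8 libraries the 9 listed markers summed to 6697 CPM in gated cells and 6625 in class II dendritic cells. In gated cells they ran from 1678 to 14860 CPM over the 6 libraries compared, and the part of free RNA was not tested. Wfdc17, Fn1, Ms4a4c, Ccl6, Ifitm3, Pid1 and Plbd1 completed the 10 called genes lowest in gated cells. Of these, all but Ifitm3 stood at 19.4 to 35.2 scaled CPM in gated cells. They may have passed the filter on low counts through the class II dendritic cells alone, Fn1 of the monocyte markers among them, so their direction is a description. Of 14 tested AP-1 and immediate early genes 13 were lower, with Junb at log2 -2.24 ± 0.16; the study chose genes of this list on these samples. For 22 cell cycle genes, 4 were higher and 0 lower, a share near the 18.8% called over all tested genes. Mki67 did not pass (log2 -0.04 ± 0.13, edgeR adjusted p = 0.883). Of 6 tested nucleic acid sensing genes 1 was higher and 1 lower, beside the same 18.8%.

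Plasma-cell-like cells were the second comparison, since pDCs and plasma cells share secretory genes. These were 1558 kept cells with at least 2 UMIs each of Jchain and Mzb1 and no Siglech. Over all 8 libraries 1084 genes were higher and 1107 lower in gated cells of 5215 tested, or 42.0%. All 22 tested genes of the endoplasmic reticulum and secretory list were lower, including Xbp1, the driver of the plasma cell secretory program (log2 -3.93 ± 0.13), and the chaperone gene Hsp90b1 (log2 -2.59 ± 0.08). The plasma-cell-like cells were chosen by the plasma cell genes Jchain and Mzb1, and the filter on low counts lets a gene pass through them alone. The direction of this list was thus in part set in advance and is a description. Of 22 cell cycle genes 21 were higher and 0 lower. Of 10 tested pDC transcription factors 8 were higher and 0 lower, with Irf8 at log2 4.10 ± 0.10 and Spib at 82.1 ± 33.2 scaled CPM against 2.46 ± 2.80. Spib was so near 0 in plasma-cell-like cells that it passed the filter through the gated cells. Its direction was thus set by the filter, and the count of 8 includes it. Ly6d did not differ past the threshold here (log2 -0.17 ± 0.16, adjusted p = 0.438), and stood at 811 ± 516 scaled CPM in gated cells and 837 ± 401 in plasma-cell-like cells.

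Among the genes highest in gated cells were Ccnd1, Cd7, Mctp2, Pdzd4, Ppfia4 and Klrd1, which stood at 2.27 to 4.99 scaled CPM in plasma-cell-like cells. In gated cells Ccnd1 stood at 259 ± 46.1 and Cd7 at 200 ± 68.5 scaled CPM. Lifr, a cytokine receptor, stood at 75.9 ± 33.9 scaled CPM against 0.789 ± 1.52, and Itgax, the integrin CD11c, at 79.1 ± 17.5 against 1.68 ± 1.73, so close to 0 in plasma-cell-like cells that no fold is given. Epha2 stood at 55.4 ± 16.5 scaled CPM in gated cells (SD, n = 8 libraries) and at 0 in every plasma-cell-like sum. The B-cell and plasma-cell genes Pou2af1, Tnfrsf17 and Ms4a1 were at 0 in every gated sum and at 324 ± 71.0, 166 ± 55.9 and 75.7 ± 35.4 scaled CPM in plasma-cell-like cells. Cacna1s, Hid1, Cacna1h and Bhlhe41 were likewise at 0 in every gated sum, while Cd79a, Prg2 and Prdm1, the last a driver of plasma cell fate, stood at 0.24, 4.83 and 0.759 scaled CPM in gated cells against 698, 721 and 136. No fold is given for a gene at 0 on one side. Genes at or near 0 on either side passed the filter through the other side. Plasma cell genes also chose the plasma-cell-like cells, so these levels are descriptions.

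The gated cells were not uniform. Ly6d, which lies at chr15:74762056-74763620 on the minus strand (GRCm38), was found in 252 gated cells and absent from 194, with median depths of 2771 and 3214 UMIs. The cells with Ly6d had 582 CPM of Cox6a2 against 120 in the others, 88.3 CPM of Ccr9 against 15.6, 92.0 CPM of Il7r, the receptor of lymphoid progenitors, against 13.2, and 1177 CPM of Tcf4 against 787. Each of these 4 differences had the same direction in 8 of 8 libraries. The cells without Ly6d had more of the myeloid receptor genes Csf1r (83.8 against 31.6 CPM) and Cx3cr1 (109 against 60.4), and more Flt3 (172 against 126), in 7 of 8 libraries each. Irf8 was alike in level, at 2008 and 1933 CPM, higher in 4 libraries and lower in 4. These are descriptions within cells chosen by expression, and no test was made.

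**Figure D2:**
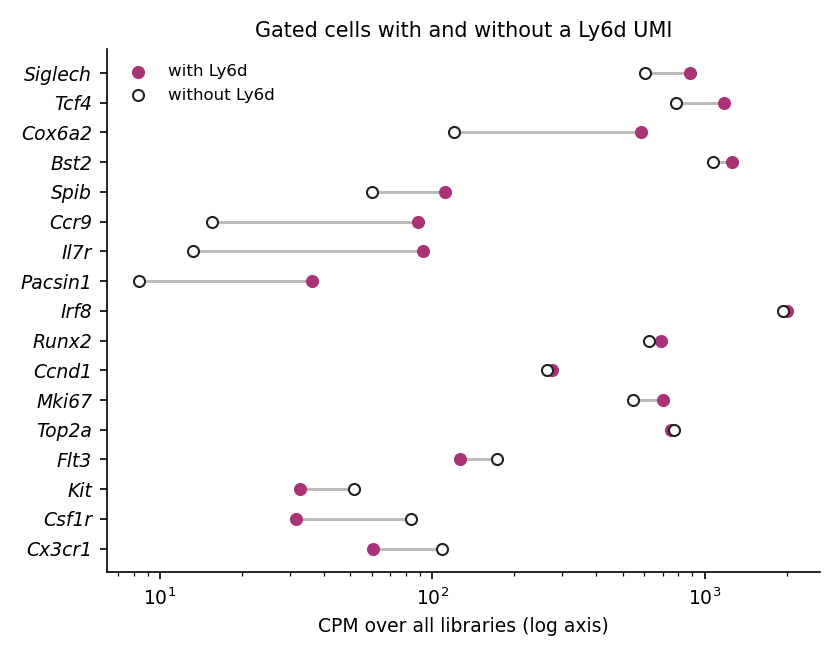
CPM on a log axis of 17 genes in the 252 gated cells with a Ly6d UMI (filled) and the 194 without (open), over all libraries. Ccr9, Il7r, Cox6a2 and Pacsin1 lie to the right in cells with Ly6d, and Csf1r, Cx3cr1 and Flt3 in cells without.

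Ccr9 marked 60 gated cells of a median of 1946 UMIs, against 3150 UMIs in the other 386. The cells with Ccr9 had 4.84 CPM of Cx3cr1 against 90.9 and 9.68 CPM of Csf1r against 59.8, and had 232 CPM of Spib against 71.6 and 973 CPM of Cox6a2 against 308. Cx3cr1 was lower in the cells with Ccr9 in 8 of 8 libraries, and Spib and Cox6a2 were higher in 8 of 8. The gate had used Cox6a2, and the part of the difference in depth was not tested.

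A split by Mki67 was also a split by depth, since a UMI is found more readily in a deeper cell. The 256 gated cells with Mki67 had a median of 3858 UMIs and the 190 without it 2068, and a cell without a UMI of it may still cycle. Cells with Mki67 had 894 CPM of Bst2 against 2096, 1685 CPM of Irf8 against 2914 and 197 CPM of Ccnd1 against 503, lower in 8 of 8 libraries for all 3 genes. Siglech followed at 532 against 1498 CPM, which the gate's count of at least 2 UMIs ties to depth. Top2a, another gene of dividing cells, was at 943 CPM against 171.

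The share of gated cells was lower in IL1β-treated mice of both genotypes. Per mouse, the gated share of assigned cells was 0.793%, 0.287%, 1.10% and 1.04% in WT with vehicle, where the second value rests on 2 gated cells. In WT with IL1β it was 0.171%, 0.241%, 0.266% and 0.281%, all below every WT vehicle mouse. These values rest on 11, 6, 14 and 4 gated cells in that order. The means were 0.807% ± 0.372 and 0.240% ± 0.0488 (SD, n = 4 mice each), 3.36-fold lower with IL1β (log2 -1.75; two-sided exact permutation p = 0.0286, the smallest p that 4 against 4 mice allow). After Benjamini-Hochberg adjustment over the 4 comparisons of shares the exact permutation p was 0.0571, above the threshold of 0.05.

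In Tet2-KO mice the share was 1.02%, 0.635%, 0.735% and 0.912% with vehicle and 0.281%, 0.424%, 0.092% and 0.132% with IL1β, again without overlap. The IL1β values rest on 4, 19, 4 and 6 gated cells in that order. The means were 0.826% ± 0.173 and 0.232% ± 0.151 (SD, n = 4 mice each), 3.56-fold lower (log2 -1.83; exact permutation p = 0.0286, adjusted 0.0571). Over both genotypes the mean share was 3.46-fold lower with IL1β (log2 -1.79), given as a description since both genotypes had already been seen to separate. Mice of 1 pool shared a library, and these tests treat them as independent, so their p-values may be too small, while an exact permutation test of 2 against 2 libraries cannot pass the threshold. No difference between genotypes passed: the log2 ratio of Tet2-KO to WT was 0.03 with vehicle (exact permutation p = 0.971) and -0.05 with IL1β (p = 0.943), the adjusted exact permutation p being 0.971 for both.

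**Figure D3:**
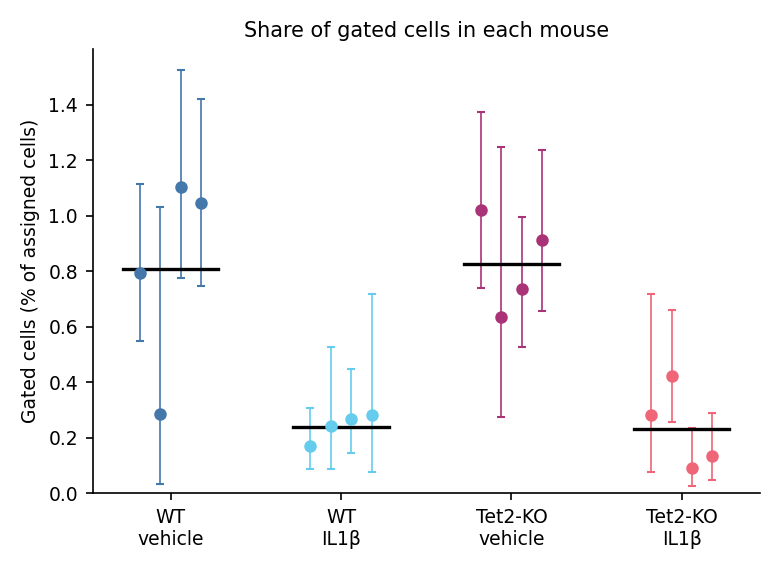
Gated cells as a percentage of assigned cells, 1 point per mouse with its exact 95% binomial interval and a black bar at the group mean. All 4 IL1β mice of each genotype lie below all 4 vehicle mice of that genotype. The lowest WT vehicle mouse, at 0.287%, rests on 2 cells and the highest WT IL1β mouse, at 0.281%, on 4.

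Several values moved with this share. Fewer cells of a type and fewer UMIs of Siglech per cell cannot be told apart by a gate on UMIs; when 2000 UMIs were drawn from every cell and shallower cells were left out (6.84% to 9.57% of assigned cells per group, and of gated cells 29 of 111, 10 of 35, 31 of 133 and 3 of 33 in the order below), the gated cells were 47 of WT vehicle, 8 of WT IL1β, 50 of Tet2-KO vehicle and 15 of Tet2-KO IL1β, and the log2 ratios were -2.20 and -1.65 (exact permutation p = 0.0571 each, with overlapping groups). A share also depends on the other cells: granulocyte-marker cells were 20.4%, 25.5%, 24.2% and 33.9% on average in the order WT vehicle, WT IL1β, Tet2-KO vehicle and Tet2-KO IL1β. With these cells left out, gated cells among them included, the log2 ratios were -1.73 in WT and -1.80 in Tet2-KO. The WT groups then overlapped (exact permutation p = 0.114). With granulocyte-marker, erythroid and Dntt-bearing cells left out, the log2 ratios were -1.79 in WT and -1.83 in Tet2-KO. This choice was made after the data were seen, and gated cells with granulocyte markers were again left out too. The WT groups overlapped (exact permutation p = 0.114), and the exact permutation p was 0.0286 in Tet2-KO. Dntt-bearing lymphoid progenitors were at 3.99%, 0.993%, 2.65% and 0.642% in that order and class II dendritic cells at 0.497%, 0.202%, 0.330% and 0.0958%. Erythroid cells were at 0.242%, 0.0818%, 0.195% and 0.0855% and plasma-cell-like cells at 1.94%, 4.35%, 1.70% and 2.67%. The WT values per mouse rest on hashtag assignments that Xist and Y-linked genes did not separate cleanly in 2 pools, and per library, with no assignment, the log2 ratios were -2.10 in WT and -1.73 in Tet2-KO. The part of the class II dendritic and plasma-cell-like shares, and of the lineage depletion, in the share of gated cells was not tested.

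Gene expression within the gated cells was compared over pools, because only 1 mouse of Tet2-KO with IL1β and only 2 of WT with IL1β had 10 or more assigned gated cells. Counts were summed per library, 3393 genes passed the filter on low counts, and all 4 groups entered 1 fit with 4 residual degrees of freedom. Scaled CPM are taken over the UMIs of the tested genes after TMM scaling, and the p-values measure the spread between pools of 2 mice.

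In WT gated cells 4 genes were called with IL1β, 1 as higher and 3 as lower, or 0.118% of those tested, by edgeR's quasi-likelihood test at an adjusted p under 0.05. One of the lower ones was Cox6a2, which the gate used, so nothing is read from its call. The number reached 12 without WT IL1β pool 2, 15 without either Tet2-KO vehicle pool, and 26 or 30 without the first or second Tet2-KO IL1β pool. In Tet2-KO gated cells 1 gene rose with IL1β, or 0.0295%, and the number called was 7 without WT vehicle pool 1, 6 or 3 without WT IL1β pool 1 or 2, 3 without Tet2-KO vehicle pool 1, and 13 or 3 without Tet2-KO IL1β pool 1 or 2. An unadjusted p under 0.05 was reached by 375 genes in WT and by 285 in Tet2-KO.

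Nfkbia was the gene called in both genotypes. It encodes IκBα, which holds NF-κB in the cytoplasm and is itself switched on by NF-κB, the route by which IL1 signals. In gated cells it stood at 57.5 and 64.3 scaled CPM in the WT vehicle pools and at 212 and 460 in the WT IL1β pools. It stood at 43.3 and 58.8 in the Tet2-KO vehicle pools and at 265 and 402 in the Tet2-KO IL1β pools. All 4 IL1β pools lay above all 4 vehicle pools. Nfkbia rose by log2 2.47 ± 0.38 in WT (SE, n = 2 pools each; edgeR adjusted p = 0.0148) and by 2.62 ± 0.40 in Tet2-KO (adjusted p = 0.0299).

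Nfkbia was also higher in the other kept cells of the IL1β libraries, at 192 to 300 CPM against 26.2 to 36.5 CPM with vehicle. Their part in the value of the gated cells, as free RNA, was not tested. The call in WT was lost without WT vehicle pool 2 (log2 2.57, edgeR adjusted p = 0.118) or WT IL1β pool 2 (log2 1.75, adjusted p = 0.227). With mice as samples the adjusted p was 0.116 in WT (log2 1.95), and in Tet2-KO, where a single IL1β mouse was left and the spread came from the other groups, 0.251 (log2 1.72). Among cells with at least 3 Siglech UMIs it was 0.159 and 0.418, with log2 differences of 2.63 and 2.52. Both calls were lost without cells of high UMI counts (0.0914 in WT and 0.129 in Tet2-KO) or without cells with both hashtags (0.0662 and 0.187), with log2 differences of 2.29, 2.48, 2.41 and 2.56 in that order, and DESeq2 gave adjusted p of 0.00109 and 0.000779. The gene lies at chr12:55489410-55492647 on the minus strand (GRCm38).

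The 250 bases before its start in RefSeq (GRCm38.p6, chr12:55492648-55492897, minus strand) are shown because Nfkbia was called in both genotypes and is a textbook target of NF-κB. Capitals mark the match to the κB motif that NF-κB binds, searched on both strands with any base allowed at 3 of its 10 positions, which starts 29 bases before the start. Of 32851 promoter windows 1350, or 4.11%, held a match, so the letters alone are a description and not a site.

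Nfkbia: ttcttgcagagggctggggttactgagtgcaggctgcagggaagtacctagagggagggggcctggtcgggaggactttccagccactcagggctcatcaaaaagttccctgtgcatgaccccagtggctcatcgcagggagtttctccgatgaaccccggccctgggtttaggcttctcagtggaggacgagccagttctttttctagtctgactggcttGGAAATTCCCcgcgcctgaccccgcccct

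The other 21 listed genes of IL1 and NF-κB signalling, without Nfkbia, summed to 596.7 and 631 CPM in WT vehicle, 1064 and 1174 in WT IL1β, 597.7 and 610.1 in Tet2-KO vehicle and 894.9 and 832.9 in Tet2-KO IL1β. The IL1β pools lay above the vehicle pools in both genotypes. Of the 5 tested besides Nfkbia 0 were called in either genotype, and their median log2 difference was 0.74 in WT and 0.55 in Tet2-KO, beside 0.001 and 0.023 over all genes. In WT 2 of the 5 had both IL1β pools above both vehicle pools, beside 22.2% of all genes, and in Tet2-KO 1 of the 5, beside 18.2%. Nfkbiz, an atypical IκB gene, was at 35.9 and 25.3 scaled CPM with vehicle and 125 and 187 with IL1β in WT (log2 2.48 ± 0.59) and did not pass (adjusted p = 0.162). Il1r1, the signalling receptor of IL1β, stood at 0.523 CPM over all gated cells, which is 1 UMI, and at 3.37 CPM in the other kept cells.

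Ly6d fell in WT gated cells with IL1β. It stood at 2091 and 1511 scaled CPM in the WT vehicle pools and at 549 and 128 in the WT IL1β pools, a log2 difference of -2.46 ± 0.43 (SE, n = 2 pools each; edgeR adjusted p = 0.0339). Cells with a Ly6d UMI were 36 of 52 and 76 of 117 with vehicle, and 12 of 23 and 4 of 31 with IL1β. In Tet2-KO it stood at 940 and 1126 with vehicle and at 704 and 678 with IL1β (log2 -0.58 ± 0.40, adjusted p = 0.668), which did not pass. The call in WT was lost among cells with at least 3 Siglech UMIs (adjusted p = 0.233), without cells of high UMI counts (0.131), without cells with both hashtags (0.0667) and with mice as samples (0.146), with log2 differences of -2.0, -2.44, -2.49 and -2.44 in that order. Without WT IL1β pool 1 the log2 difference was -3.80 and without pool 2 it was -1.72, both called.

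Cox6a2, a gene the gate used, is given as levels with no test. It was at 783 and 629 scaled CPM in the WT vehicle pools and at 212 and 196 in the WT IL1β pools. In Tet2-KO it was at 347 and 303 with vehicle and at 386 and 551 with IL1β. The IL1β pools lay below the vehicle pools in WT and above them in Tet2-KO. The gene lies at chr7:128205435-128206387 on the minus strand (GRCm38). The remaining gene called as lower in WT was a gene model without a symbol of its own.

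The difference between the genotypes in the response to IL1β was tested as an interaction, which called 0 genes, or 0%, by edgeR (127 at an unadjusted p under 0.05, and 1 called by DESeq2). The response of Ly6d is thus not shown to differ between the genotypes. A block that joined the pools with high Xist, and so largely followed sex, was chosen after the data were seen and called 6 genes for the interaction, 12 with IL1β in WT and 8 in Tet2-KO.

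**Figure D4:**
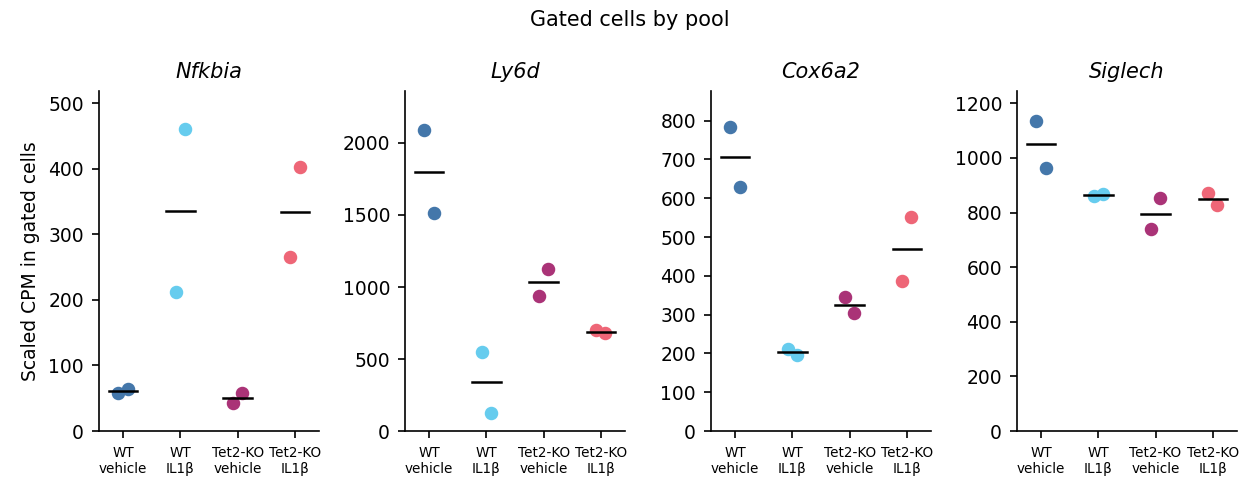
Scaled CPM in gated cells of 4 genes, 1 point per pool of 2 mice with a black bar at the group mean. Nfkbia is higher in all 4 IL1β pools, Ly6d and Cox6a2 are lower in both WT IL1β pools than in both WT vehicle pools, and Siglech lies between 739 and 1135 throughout. The gate used Siglech and Cox6a2.

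Of the 11 tested surface and secreted genes that the gate did not use, 1 was called with IL1β in WT, Ly6d, and 0 in Tet2-KO, with median log2 differences of 0.04 and -0.10. In WT 4 of the 11 had both IL1β pools below both vehicle pools, beside 23.2% of all genes, and 3 had both above, beside 22.2%. In Tet2-KO 2 of the 11 had both below, beside 20.8%, and 4 had both above, beside 18.2%. Among genes the gate used, given as levels, Rnase6 was at 273 and 248 scaled CPM with vehicle and 162 and 128 with IL1β in WT, and Tcf4 at 1437 and 1268 with vehicle and 1461 and 911 with IL1β. Irf8 differed by log2 -0.16 ± 0.24 in WT and -0.22 ± 0.24 in Tet2-KO, and Runx2 by -0.11 ± 0.23 and 0.15 ± 0.23, none past the threshold. Of 9 tested pDC transcription factors besides Tcf4, 0 were called in either genotype, while 5 had both IL1β pools above both vehicle pools in WT, beside 22.2% of all genes, and 1 in Tet2-KO, beside 18.2%.

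Survival and signalling genes near the top in WT did not pass. Pim1, a kinase gene of cytokine signalling, was at 79.0 and 89.5 scaled CPM with vehicle and 287 and 281 with IL1β (log2 1.72 ± 0.36, edgeR adjusted p = 0.139). Mcl1, which protects cells from apoptosis, was at 144 and 188 with vehicle and 375 and 383 with IL1β (log2 1.15 ± 0.27, adjusted p = 0.162). In Tet2-KO the differences of Pim1 and Mcl1 were log2 0.62 ± 0.36 and 0.43 ± 0.27. Atp8b4, a flippase gene, was at 64.7 and 62.0 with vehicle and 125 and 332 with IL1β in WT (log2 1.93 ± 0.44, adjusted p = 0.162). Its log2 difference was 0.97 without WT IL1β pool 2 and 2.40 without pool 1, where it was called, as it was in 6 of 19 alternatives.

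MHC class II values in WT rested on 1 pool. H2-Aa was at 21.6 and 48.2 scaled CPM with vehicle and 624 and 76.7 with IL1β in WT (log2 2.93 ± 0.69, edgeR adjusted p = 0.162), and in the pool at 624 it came from 7 of 23 cells. Without that pool the difference was 0.96 (adjusted p = 0.731), and without the other WT IL1β pool it was 3.89 (adjusted p = 3.43e-05). It was also called without any 1 of the Tet2-KO pools (adjusted p = 0.0137 to 0.029) and with the block that joined the pools with high Xist (log2 3.26, adjusted p = 0.0043). The whole class II list summed to 2709 CPM in that pool and to 474 to 637 in the other 7.

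Among the genes nearest to a call as lower in WT were Car2, Blvrb and Aqp1, genes that erythroid cells use. Car2 was at 654 and 797 scaled CPM with vehicle and 162 and 272 with IL1β (log2 -1.71 ± 0.36, edgeR adjusted p = 0.139), and Blvrb and Aqp1 differed by log2 -2.74 ± 0.58 and -2.17 ± 0.49 (adjusted p = 0.139 and 0.162). With 1 pool left out the log2 differences of Car2 and Blvrb in WT ran from -2.18 to -1.41 and from -3.45 to -2.13. The 7 erythroid markers moved with them, at 3273 and 1374 CPM in gated cells of WT vehicle and 54.8 and 284 in WT IL1β. In Tet2-KO these markers were at 1355 and 1116 with vehicle and 454 and 4944 with IL1β. Car2 and Blvrb were also nearest to a call as higher in Tet2-KO than in WT with IL1β after Hspa1b (log2 1.96 ± 0.37 and 2.58 ± 0.64, adjusted p = 0.173 and 0.815). Without Tet2-KO IL1β pool 1 these differences were 2.46 and 3.49 and both were called, and without pool 2 they were 1.32 and 1.44 and were not. Over 19 alternatives Car2 was called in 7 and Blvrb in 3, and the part of the erythroid signal in these values was not tested.

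In Tet2-KO the genes nearest to a call after Nfkbia were Hspa1b, a heat shock chaperone gene (log2 1.58 ± 0.34, edgeR adjusted p = 0.398), and granule genes. With 1 pool left out the Hspa1b difference ran from 0.68 to 1.96. Ngp, a neutrophil granule gene, was at 21.7 and 0 scaled CPM with vehicle and 15.1 and 3580 with IL1β, so the groups overlapped and the difference (edgeR adjusted p = 0.404) rested on the pool of 10 cells. Camp, another granule gene, was at 35.2 and 3.09 with vehicle and 30.3 and 1419 with IL1β (adjusted p = 0.438). The 9 granulocyte markers summed to 34255 CPM in that pool and to 1678 to 14860 in the other 7, and their part in the result was not tested. Mbtd1 and, among the lower ones, Ngfrap1, Pf4, Psmb6, Aes and Prmt1 also did not pass, with adjusted p of 0.438 to 0.444.

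Tet2-KO and WT gated cells were compared at each treatment. With vehicle 0 genes were called, or 0% (85 at an unadjusted p under 0.05, and 0 by DESeq2), and with IL1β 0 genes were called, or 0% (169 at an unadjusted p under 0.05, and 3 by DESeq2). Without Tet2-KO IL1β pool 1 or 2 the vehicle number was 8 or 7, and without any 1 pool the IL1β number was between 1 and 16, highest without Tet2-KO IL1β pool 1. Tet2 itself stood at 49.2 and 69.0 CPM in WT vehicle, 43.9 and 76.8 in WT IL1β, 47.9 and 58.6 in Tet2-KO vehicle and 100.2 and 70.9 in Tet2-KO IL1β, from 4 to 35 UMIs per pool. The libraries count 3′ ends per gene and not the deleted part, so these values do not check the genotype.

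Commd10 and Hspa1b separated the genotypes without passing. Commd10, a gene of protein trafficking, was at 7.19 and 9.19 scaled CPM in WT vehicle, 12.5 and 17.0 in WT IL1β, 59.6 and 105 in Tet2-KO vehicle and 68.1 and 127 in Tet2-KO IL1β. All 4 Tet2-KO pools lay above all 4 WT pools, as in the other kept cells at 22.9 to 30.9 against 7.85 to 10.2 CPM. Its log2 difference with vehicle was 3.15 ± 0.64 (edgeR adjusted p = 0.287). Hspa1b was at 35.9 and 80.4 in WT vehicle, 137 and 93.7 in WT IL1β, 184 and 226 in Tet2-KO vehicle and 795 and 339 in Tet2-KO IL1β, again without overlap, whereas in the other kept cells the genotypes overlapped (69.4 to 164 and 126 to 403 CPM). It differed by log2 1.62 ± 0.39 with vehicle (edgeR adjusted p = 0.469) and 2.44 ± 0.43 with IL1β (adjusted p = 0.150). With 1 pool left out the Hspa1b difference ran from 1.35 to 2.5 with vehicle and from 1.55 to 2.84 with IL1β.

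Granule genes were among those nearest to a call as lower in Tet2-KO with vehicle. Camp was at 539 and 448 scaled CPM in WT vehicle against 35.2 and 3.09 in Tet2-KO vehicle (edgeR adjusted p = 0.469), and Chil3 and Ngp had like patterns, beside granulocyte markers of 6262 and 7110 CPM in WT vehicle and 6907 and 1796 in Tet2-KO vehicle. Atp1b1, Apoe, Ccnd2 and Tmem160 with vehicle did not pass, nor did Slc29a1, Birc5, Taok1, Vezf1, Akirin2 and Parp1 with IL1β.

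Immediate early genes differed between the pools of a group. The 19 AP-1 and immediate early genes summed to 2104 CPM in the pool of mice 1 and 2 and 1528 in that of mice 3 and 4 in WT vehicle, 6526 and 1804 in WT IL1β, 4127 and 2059 in Tet2-KO vehicle and 4481 and 1311 in Tet2-KO IL1β. The pool of mice 1 and 2 was higher in 4 of 4 groups. Fos followed at 252 and 124, 1274 and 42.6, 712 and 220, and 621 and 63.6 scaled CPM in that order. The list's median log2 difference was 1.12 for IL1β in WT and 0.11 in Tet2-KO, with 0 of 14 tested genes called in either, and the study chose genes of this list on these samples.

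**Figure D5:**
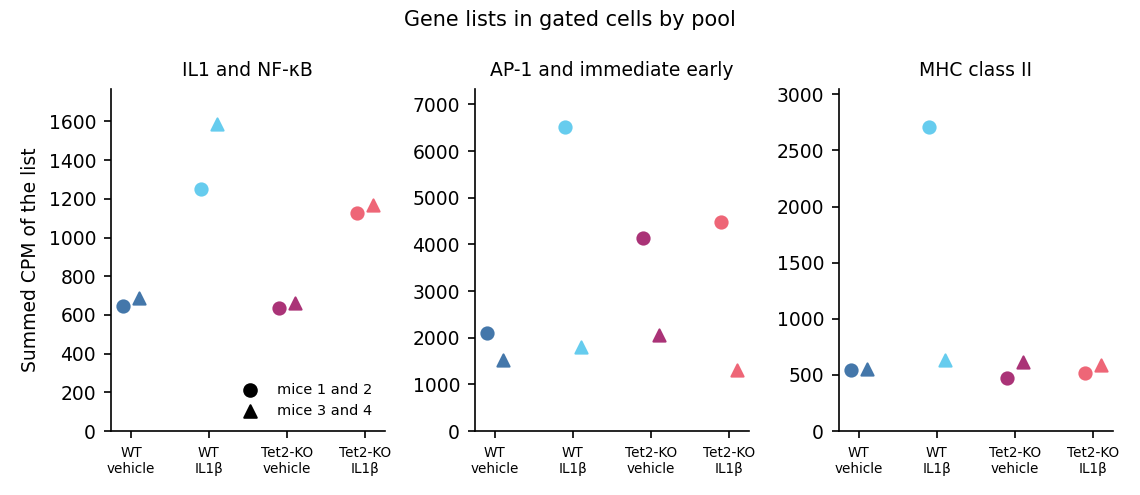
Summed CPM in gated cells of 3 gene lists, 1 point per pool, circles for mice 1 and 2 and triangles for mice 3 and 4. The IL1 and NF-κB list, Nfkbia included, is higher in all 4 IL1β pools, the AP-1 list is higher in the circle than in the triangle of each group, and the class II list stands apart in 1 WT IL1β pool at 2709.

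Other lists had few or no calls in the 4 comparisons. No gene of the nucleic acid sensing, interferon response, MHC class I, endoplasmic reticulum and secretory, cell cycle, heat shock, DNA methylation or dendritic receptor lists was called. Of the 11 tested dendritic growth factor and cytokine receptors, all 11 had a positive log2 difference with IL1β in WT, with a median of 0.45, and 7 of 11 in Tet2-KO, with a median of 0.41, beside 50.1% and 51.8% of all tested genes. The 7 listed monocyte markers, which share Csf1r and Ccr2 with this list, summed to 726 and 812 CPM with vehicle and 1404 and 967 with IL1β in WT, and to 860 and 743 with vehicle and 1068 and 975 with IL1β in Tet2-KO. Of their 5 tested members 0 were called, and their part in the receptor values was not tested. Flt3 was at 187 and 138 scaled CPM with vehicle and 337 and 196 with IL1β in WT, and Cxcr4, the receptor that holds cells in the marrow, at 208 and 207 against 387 and 358 (adjusted p = 0.333). The interferon response list summed to 1704 to 2872 CPM over the pools.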

How the data were processed

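The authors deposited, per the file headers and the study's methods, matrices of raw UMI counts per gene and cell made with Cell Ranger 3.1.0 on GRCm38 (mm10), with hashtag counts in the same matrices; the submitters' processing notes also name Seurat 3.2.3, whose output was not used here. Of 121405 barcodes 94917 were kept, those in which 750 or more genes were detected and mitochondrial UMIs made up no more than 10%, and the gate was applied to the raw counts. Hashtags were called with HTODemux in Seurat 5.3.0, which assigned 312 of the 446 gated cells to a mouse, called both hashtags of a pool in 20 and neither in 114. Cells with both hashtags were kept in sums per pool, and no other doublet caller was run.

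Shares were tested per mouse with two-sided exact permutation tests. For gene tests the counts of gated cells were summed per library and tested with edgeR 4.0.16 (filterByExpr, TMM factors, quasi-likelihood test, Benjamini-Hochberg adjustment, threshold 0.05), with DESeq2 1.42.0 as an alternative, in R 4.3.3. Mice were to be the samples where at least 3 mice of every group had 10 assigned gated cells, which 2 groups did not reach, so pools were used. Other alternatives were mice as samples, RLE size factors, no filter on low counts, other Siglech minimums, cells of high UMI counts left out, a replicate block and each pool or mouse left out. The scripts were tested on simulated counts. Intervals and floors cover counting error only.

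Named genes were the called genes with the greatest change, filled up to 5 per direction with those of smallest unadjusted p, given as not passed, and up to 10 per direction against other cells. Sex-linked genes were left out of that naming, and some genes that met it are not reported here. The gated cells and gene lists were chosen with earlier results of these data known. Same-numbered pools did not deviate together in every pair (correlations of 0.192, 0.166, -0.028 and -0.112), so pool numbers were not taken to pair samples.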

Additional observations from a re-analysis of the deposited data

How the results depend on the processing

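The 446 gated cells, and the 10 in the smallest pool, limit every gene test, and only genes with UMIs in several pools could be tested. The share of gated cells kept its direction with IL1β under every alternative in both genotypes, with the log2 ratio between -2.03 and -1.56 in WT and between -2.30 and -1.57 in Tet2-KO when 1 mouse was left out. Its adjusted exact permutation p reached 0.229 in WT and 0.171 in Tet2-KO over the alternatives. Per library the log2 ratio was -2.10 in WT with IL1β, and 0.165 for Tet2-KO against WT with IL1β.

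Numbers of genes called are given in the order Tet2-KO against WT with vehicle, the same with IL1β, IL1β against vehicle in WT, the same in Tet2-KO, and the interaction, against 0, 0, 4, 1 and 0. Without the filter on low counts they were 23, 21, 70, 40 and 19, where more genes were tested. With DESeq2 they were 0, 3, 9, 2 and 1. Leaving out 1 pool gave 0 to 8, 1 to 16, 4 to 30, 1 to 13 and 0 to 18. With the replicate block they were 0, 0, 5, 1 and 0, and the shares then had log2 ratios of -1.60 in WT and -2.06 in Tet2-KO with IL1β. With the pool numbers crossed in the block, which joined the pools with high Xist and was chosen after the data were seen, they were 2, 3, 12, 8 and 6.

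With at least 1 Siglech UMI 2 genes were called with vehicle and 2 with IL1β in Tet2-KO, and with at least 3 Siglech UMIs 0 with IL1β in WT and 0 in Tet2-KO. Without cells of high UMI counts the number was 1 with vehicle, and 2 in WT and 0 in Tet2-KO with IL1β. Without cells with both hashtags, chosen after the data were seen, it was 1 in WT, 0 in Tet2-KO and 1 for the interaction. With mice as samples it was 0 in WT and 14 in Tet2-KO, where the IL1β arm was 1 mouse assumed to vary like the other groups. Against class II dendritic cells 757 genes were called without the filter, and 353 to 468 with 1 library left out. Of 751 values of 40 named results 633 kept their side of the threshold, 16 lost a call, 99 gained one and 3 reversed: Chil3 between genotypes with vehicle (0.14) and Camp with IL1β in Tet2-KO (-0.07), both with at least 1 Siglech UMI, and Car2 between genotypes with IL1β with mice as samples (-2.19), which rests on that 1 mouse. The cause of these changes was not tested.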

Other observations

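By Xist and Y-linked genes over all kept cells, 2 of the 8 pools held mice of both sexes. In the WT vehicle pool of mice 1 and 2, Xist stood at 1500 CPM in the cells assigned to mouse 1 and 75.0 CPM in those of mouse 2, and Y-linked genes at 10.3 and 127 CPM. In the WT IL1β pool of mice 3 and 4, Xist stood at 278 CPM in mouse 3 and 2451 CPM in mouse 4, and Y-linked genes at 173 and 10.1 CPM. The parts of wrong hashtag assignment and of free RNA in these values were not tested. The WT shares per mouse rest in part on the assignments in these pools.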
